A study of Mus musculus with 12 samples.

Results

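RNA levels were compared between OSKM-induced mouse fibroblasts that carried a short hairpin against Trim28 and induced fibroblasts that carried a scrambled hairpin. The comparison took 6 of the 12 libraries of the study, 3 with each hairpin, picked by their sample titles. Of the 24207 genes in the deposited table, 14520 passed the filter on low counts and were tested, and 9687 were too thinly read to test. Both groups were C57BL/6 mouse embryonic fibroblasts with the lentiviral vectors FUW-OSKM, which encodes Oct4, Sox2, Klf4 and Myc, and FUW-M2rtTA, the doxycycline-dependent activator. Both were given doxycycline for 7 days on irradiated feeder fibroblasts in medium for embryonic stem cells, so by their labels they differed only in the hairpin. The other 6 libraries, used here as reference levels, were induced cells with hairpins against Trim28 and Setdb1 and uninduced cells with the scrambled hairpin, 3 each. The column names point to a single Trim28 hairpin, so an effect of that hairpin on other transcripts cannot be told apart from the loss of Trim28. The labels do not say whether the feeder cells were taken away before RNA was extracted, nor whether replicates came from separate embryos or cultures. If the replicates were not separate cultures, the p-values below reflect technical spread alone.

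Trim28, also called Kap1 or Tif1b, is a corepressor without a DNA-binding domain of its own. KRAB zinc finger proteins bring it to DNA, where it recruits Setdb1 for repressive histone methylation, HP1 proteins, and a histone deacetylase complex. In embryonic cells it is known for silencing endogenous retroviruses and for keeping the methylation of imprinted regions, and genes next to such elements can be read when it is lost. Reprogramming of fibroblasts takes them through the loss of mesenchymal genes and the gain of epithelial genes before the pluripotency network is set up.

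The 6 libraries held 11906701 to 19191649 counted reads, and the shallowest was control replicate 2. That library also had the highest mitochondrial share, 2.37%, against 1.78% to 2.01% in the other 5. Control replicates differed more from each other than the knockdown replicates did: chi-square per degree of freedom was 9.67 to 18.8 between pairs of controls and 2.02 to 3.35 between pairs of knockdown libraries. All pairs thus differed by more than sampling noise, and no 2 libraries were counted as 1. Some mesenchymal genes were part of that spread. Summed over 7 fibroblast markers, the controls stood at 16969.7, 11390.5 and 13967.6 CPM (counts per 1e6 counts, scaled with TMM factors) and the knockdown libraries at 11642.9, 10579.1 and 10391.0 CPM. Col1a1, given below, makes up a large part of these sums. The matrix genes Dcn, Vcan and Lox, also given below, had controls close together.

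Trim28, the target of the hairpin (ENSMUSG00000005566, chromosome 7, 13024152 to 13031035), gave 362, 286 and 337 CPM in control replicates 1 to 3 and 64.1, 52.2 and 59.1 CPM with the hairpin. All 3 knockdown libraries lay far below all 3 controls, and the log2 change was -2.49 ± 0.10 (SE from the edgeR model, adjusted p = 9.61e-11). A share of the transcript remained: the knockdown libraries still averaged 58.5 ± 5.95 CPM (SD, n = 3). Setdb1, the methyltransferase that Trim28 recruits, stood at 76.4, 84.5 and 82.8 CPM in the controls and at 124, 122 and 121 CPM in the knockdown, without overlap, and rose by 0.59 ± 0.085 (adjusted p = 8.24e-05). None of the 4 factor genes was called by edgeR (1 was higher at an unadjusted p under 0.05, none by DESeq2 or limma-voom). Pou5f1, which encodes Oct4, stood at 444, 474 and 544 CPM in the controls and at 536, 613 and 583 CPM in the knockdown, and the groups overlapped. The other three overlapped as well, and the mean of Sox2 went from 161 ± 34.6 to 191 ± 17.8 CPM, that of Klf4 from 462 ± 49.9 to 488 ± 39.7 CPM and that of Myc from 507 ± 53.96 to 549.6 ± 55.5 CPM. Counts of these genes do not separate the vector from the cells' own genes. Without the filter on low counts Pou5f1 and Sox2 passed the test (adjusted p = 0.00965 and 0.0184). Over all 14 alternative settings their adjusted p ran from 0.00965 to 0.354 and from 0.0184 to 0.782.

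A gene was called risen or fallen when its edgeR quasi-likelihood p, adjusted by Benjamini-Hochberg over the 14520 tested genes, was under 0.05. By that rule 3620 genes changed (24.9%), of which 1909 rose (13.1%) and 1711 fell (11.8%). Neither direction led under every setting: upper-quartile factors gave 1672 risen and 1969 fallen, and leaving out control replicate 1 gave 1870 and 1871. Most changes were small. The median size among called genes was 0.50 on the log2 scale, and 2074 of the 3620 (57.3%) moved by less than 1.5-fold. At least 2-fold changes were made by 430 risen genes (2.96% of those tested) and 369 fallen ones (2.54%). Libraries of the 2 groups did not overlap in 38.9% of tested genes, called or not. The median log2 change of all tested genes was -0.00. In bulk RNA, a lower level can stand for fewer cells of a kind or for less RNA per cell, and these cannot be told apart here.

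**Figure D1:**
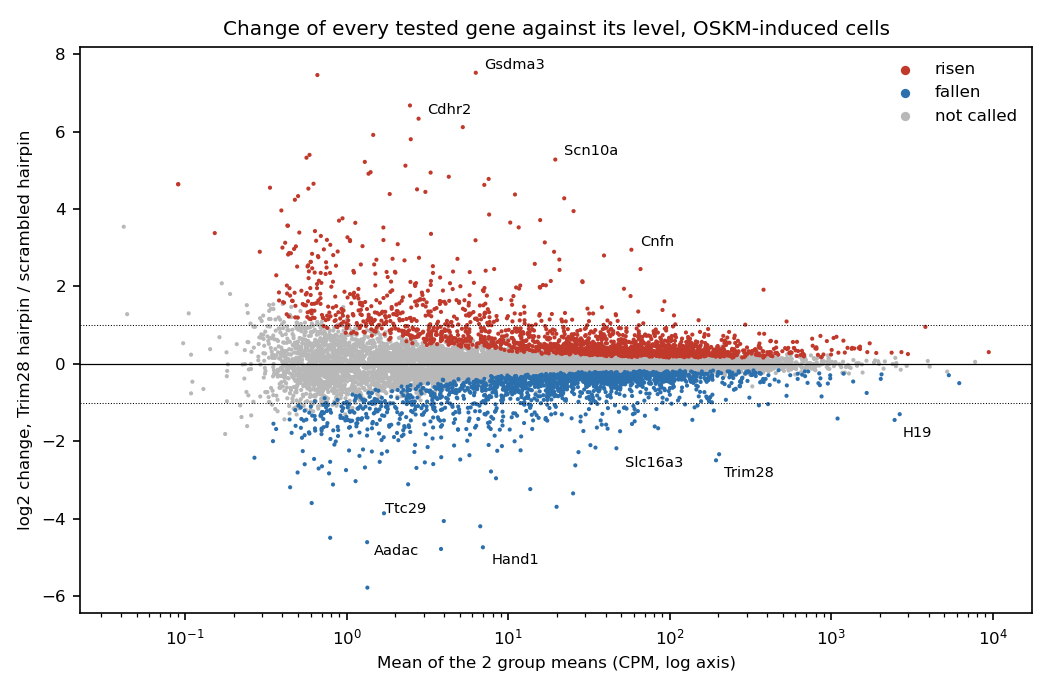
Log2 change (Trim28 hairpin over scrambled hairpin, vertical axis) of each of the 14520 tested genes against the mean of the 2 group means (CPM, log axis), with risen genes in red, fallen genes in blue and genes not called in grey; dotted lines mark 2-fold. The largest changes lie at low levels, while nearly all genes over 100 CPM stay within 2-fold, with Trim28 and H19 among the exceptions.

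Large changes were made by genes that were hardly read in one of the groups. Of the 61 genes that rose at least 8-fold, 52 had a control mean under 1 CPM, and 59 were under 1 CPM in uninduced cells as well. Their median went from 0.131 CPM in the controls to 2.53 CPM in the knockdown, and only 14 passed 10 CPM. The filter asks for a minimum count of 10 in a group, so a thinly read gene can be tested only because 1 group is high, and the shares of large changes at low levels are in part set by it. By mean level over all 12 libraries, a rise of at least 2-fold was made by 11.3% of the 1242 tested genes with a mean under 1 CPM, and by 6.46% of the 3484 genes from 1 to 10 CPM. At higher levels the shares were 0.818% of 7457 genes from 10 to 100 CPM and 0.171% of 2337 genes over 100 CPM. Falls of that size followed the same order of levels, with 8.05%, 5.54%, 0.845% and 0.556%. Genes over 100 CPM were still called often, 18.2% of them as risen and 9.71% as fallen, with small changes.

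The genes with the largest rises do not belong to the fibroblast or to the pluripotent programme. The strongest was Gsdma3, a gasdermin (pore-forming proteins that open membranes in pyroptotic cell death) known from skin and hair follicles. Next came Cdhr2, a cadherin of the intestinal brush border, and Ceacam10, a secreted cell adhesion molecule of the carcinoembryonic antigen family. Dnah6 and Dnah8 encode dynein heavy chains of cilia and flagella. The 250 bases upstream of the RefSeq start (GRCm38.p6) of the first 3 of these genes with a single start in the table are shown, because these genes went from nearly no reads to clear expression. Capitals mark CG dinucleotides, the sites of DNA methylation.
Gsdma3, chr11:98626099-98626348, plus strand: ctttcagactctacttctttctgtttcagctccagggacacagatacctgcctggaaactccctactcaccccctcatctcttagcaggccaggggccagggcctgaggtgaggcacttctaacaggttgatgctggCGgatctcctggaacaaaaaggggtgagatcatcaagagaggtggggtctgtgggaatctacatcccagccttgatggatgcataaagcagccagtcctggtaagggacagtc
Cdhr2, chr13:54701213-54701462, plus strand: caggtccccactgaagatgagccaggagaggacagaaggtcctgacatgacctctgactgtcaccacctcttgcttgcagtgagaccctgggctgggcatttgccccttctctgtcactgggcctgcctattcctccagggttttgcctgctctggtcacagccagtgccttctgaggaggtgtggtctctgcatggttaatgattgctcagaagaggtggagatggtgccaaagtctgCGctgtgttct
Dnah6, chr6:73221632-73221881, minus strand: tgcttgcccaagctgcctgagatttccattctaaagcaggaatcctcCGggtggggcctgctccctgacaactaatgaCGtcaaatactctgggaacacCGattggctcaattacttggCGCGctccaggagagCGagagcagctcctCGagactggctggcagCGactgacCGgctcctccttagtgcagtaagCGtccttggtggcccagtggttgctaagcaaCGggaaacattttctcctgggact
Gsdma3 and Cdhr2 have 1 CG each in these 250 bases, and Dnah6 has 11. A window was found for 11 of the 12 genes with the largest rises. Their median was 5 CG, and 6 of the 11 had at most 5, against a median of 6 and a share of 49.6% with at most 5 over all 32851 windows of the table. The windows of Clec12a and Dnah8 lie 7553 and 2582 bases from the start of the deposited gene. None of the 11 holds TATAAA or its reverse complement, which 12.4% of all windows do, nor TGCCGC or its reverse complement, the core letters of the Zfp57 motif, which 8.68% do. These are matches of letters, not sites.

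Per library the rises were sharp. Gsdma3 (ENSMUSG00000064224, chromosome 11, 98626360 to 98638226) stood at 0.0585, 0.081 and 0.0501 CPM in the controls, which is 1 read per library, and at 11.2, 13.95 and 12.4 CPM in the knockdown. With both hairpins its mean was 12.5 CPM, and uninduced cells had no read of it. Cdhr2 (ENSMUSG00000034918, chromosome 13, 54701461 to 54736662) went from 0.0585, 0.081 and 0.0501 to 5.59, 5.38 and 5.55 CPM. Both genes were thus far apart between the groups, and the 3 knockdown libraries were close together. Ceacam10 stood at 0.292, 0 and 0.1 CPM in the controls and 10.5, 10.2 and 10.2 CPM in the knockdown, a log2 change of 6.12 ± 0.32 (adjusted p = 7.45e-09). Most of its few control reads were in control replicate 1, and without that library the change was 7.21. Dnah6 stood at 0, 0 and 0.2 CPM against 4.70, 5.08 and 4.96 CPM (5.80 ± 0.46, adjusted p = 1.97e-07). All its control reads were in control replicate 3; without that library both controls are at 0 and the fitted 9.32 rests on the model's handling of zeros, so the size of its rise is uncertain. Dnah8 stood at 0.292, 0.243 and 0.3 CPM against 7.94, 8.396 and 8.52 CPM (4.84 ± 0.22, adjusted p = 3.67e-10). These dynein genes were read in every knockdown library at a level that no control reached, as the naming rule required.

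The most abundant of the 12 largest rises was Scn10a, a voltage-gated sodium channel of pain-sensing neurons. It stood at 0.819, 1.30 and 0.901 CPM in the controls and at 31.997, 44.2 and 38.1 CPM in the knockdown, a log2 change of 5.28 ± 0.22 (adjusted p = 9.87e-11). Fer1l4, a ferlin family gene, stood at 0.468, 0.648 and 0.551 CPM against 11.7, 15.8 and 13.4 CPM (4.62 ± 0.23, adjusted p = 6.88e-10). Neither gene was read above 0.0216 CPM on average in uninduced cells. Qrfpr, a neuropeptide receptor, stood at 0.0585, 0.243 and 0.1 CPM against 3.9996, 3.90 and 5.55 CPM (5.12 ± 0.36, adjusted p = 4.65e-08), and Colgalt2, a collagen galactosyltransferase, at 0.117, 0 and 0.1 CPM against 2.79, 2.72 and 2.45 CPM (4.91 ± 0.41, adjusted p = 2.99e-07). S100a9, a calcium-binding protein abundant in neutrophils, stood at 0.0585, 0.081 and 0.1 CPM against 2.67, 2.72 and 2.80 CPM (4.95 ± 0.41, adjusted p = 9.03e-07). The other two rest on very few control reads and are given as ratios of reads per library size with 95% counting intervals. The lectin receptor Clec12a, with 1 control read in all and a knockdown mean of 1.16 CPM, was 57.6-fold higher (9.93 to 2312). Prrt3, a proline-rich transmembrane protein, had 2 control reads and was 29.8-fold higher (7.89 to 251.5). On that scale Gsdma3 and Cdhr2, with 3 control reads each, were 206.8-fold (70.4 to 1005) and 90.7-fold (30.7 to 442) higher. Such intervals cover counting error only.

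**Figure D2:**
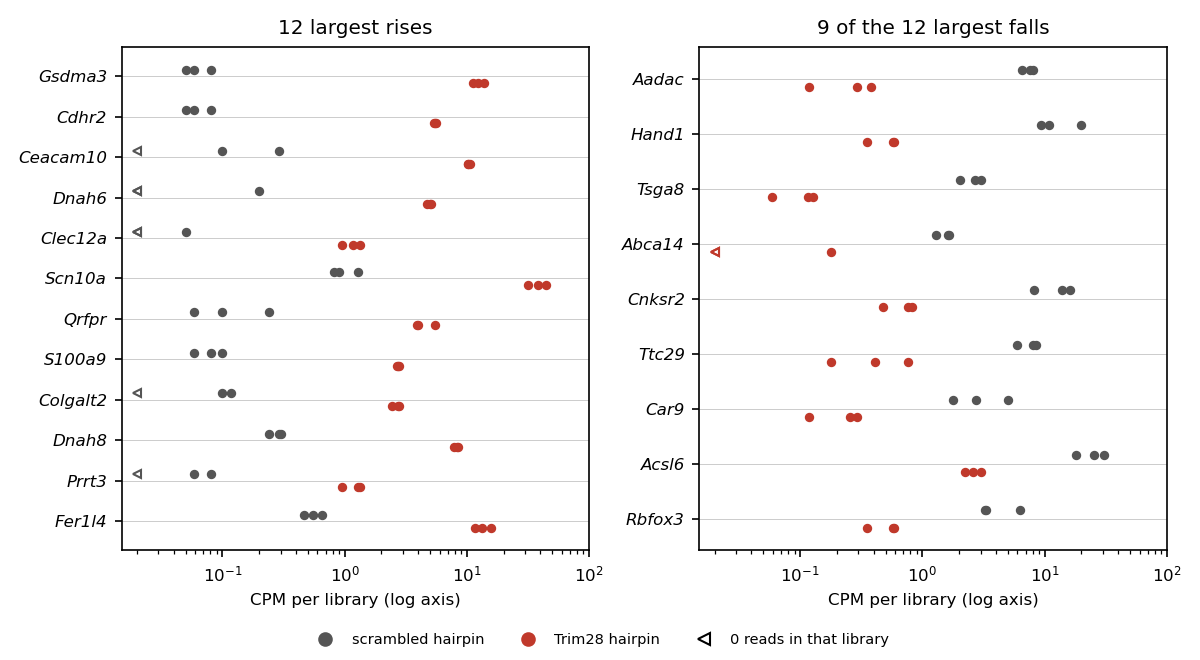
CPM (log axis) in each of the 3 control libraries (grey) and 3 knockdown libraries (red) for the 12 largest rises (left) and 9 of the 12 largest falls (right) among called genes with at least 1 CPM in the higher group; open triangles mark libraries with 0 reads. No gene has overlapping groups, which the naming rule required, and most genes lie under 1 CPM in their lower group.

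Among the largest falls were genes that were read in induced controls and not in uninduced cells. Aadac encodes a hydrolase of the endoplasmic reticulum abundant in liver and gut, Hand1 a transcription factor of the heart and trophoblast, Tsga8 a testis transcript, and Abca14 a lipid transporter family member. Uninduced cells had no read of these 4 genes. The 250 bases upstream of 3 of them, which have a single RefSeq start (GRCm38.p6), are shown. Capitals mark the letters CCAAT, or ATTGG where the motif lies on the other strand, a core promoter element.
Aadac, chr3:60031538-60031787, plus strand: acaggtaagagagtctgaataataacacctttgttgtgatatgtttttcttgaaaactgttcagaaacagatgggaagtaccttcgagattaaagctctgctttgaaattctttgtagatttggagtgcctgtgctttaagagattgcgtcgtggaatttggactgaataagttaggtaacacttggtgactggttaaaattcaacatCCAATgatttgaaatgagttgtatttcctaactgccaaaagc
Tsga8, chrX:83487925-83488174, minus strand: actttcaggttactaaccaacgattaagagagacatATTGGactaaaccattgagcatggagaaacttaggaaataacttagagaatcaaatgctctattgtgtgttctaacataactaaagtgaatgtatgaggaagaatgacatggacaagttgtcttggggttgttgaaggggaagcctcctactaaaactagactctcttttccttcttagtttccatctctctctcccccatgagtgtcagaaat
Abca14, chr7:120203714-120203963, plus strand: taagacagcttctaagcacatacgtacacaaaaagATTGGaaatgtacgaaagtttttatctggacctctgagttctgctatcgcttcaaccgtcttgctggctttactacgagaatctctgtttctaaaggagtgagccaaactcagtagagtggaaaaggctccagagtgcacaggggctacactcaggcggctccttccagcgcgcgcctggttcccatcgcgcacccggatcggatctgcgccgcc
Each of the 3 holds the motif once, and it is in 33.8% of all windows of this length in the table. It is also in 2 of the 11 windows of the largest rises, that of Dnah6 among them, where it is not marked above. Whether the motif differs between rises and falls was not tested. Windows were found for only 8 of the 12 largest falls, fewer than 80%, so no share over the falls is given. Both strands were searched for each motif.

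Aadac stood at 6.55, 8.10 and 7.56 CPM in the controls and at 0.381, 0.118 and 0.292 CPM in the knockdown, a log2 change of -4.78 ± 0.31 (adjusted p = 8.5e-08). Hand1 stood at 9.41, 10.9 and 19.9 CPM against 0.571, 0.591 and 0.35 CPM (-4.74 ± 0.47, adjusted p = 5.42e-06). For Hand1 the controls themselves spread, with replicate 3 at the top. Abca14 had 3 knockdown reads in all and was 25.2-fold lower (95% counting interval 8.29 to 124.9). Cnksr2, a scaffold protein of neuronal synapses, stood at 8.13, 16.2 and 13.9 CPM against 0.762, 0.473 and 0.817 CPM (-4.19 ± 0.29, adjusted p = 4.02e-08), and Rbfox3, the neuronal splicing factor NeuN, at 3.33, 3.24 and 6.31 CPM against 0.571, 0.355 and 0.584 CPM (-3.11 ± 0.43, adjusted p = 0.000101). Both neural genes were low in all 3 knockdown libraries, and the naming rule required that the groups not overlap. Car9, a carbonic anhydrase induced by low oxygen, stood at 2.75, 1.78 and 5.01 CPM against 0.254, 0.118 and 0.292 CPM (-3.86 ± 0.45, adjusted p = 1.08e-05), and Acsl6, a fatty acid ligase, at 18.2, 25.2 and 30.8 CPM against 2.22, 2.60 and 3.04 CPM (-3.23 ± 0.23, adjusted p = 5.55e-08).

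A pair of the largest falls had quite another level with both hairpins. Most falls did not: of the 16 genes fallen at least 8-fold, 3 were called higher with both hairpins than with the Trim28 hairpin alone, and 13 were not called. Of the 61 genes risen at least 8-fold, 13 were called higher there, 18 lower and 30 not, beside 21.7% of all tested genes called in either direction. Tsga8 stood at 2.69, 2.03 and 3.003 CPM in the controls, 0.127, 0.0591 and 0.117 CPM with the Trim28 hairpin and 2.29, 2.66 and 2.45 CPM with both hairpins. Ttc29, a gene of sperm flagella, stood at 5.96, 8.51 and 8.11, 0.762, 0.177 and 0.409 and 12.2, 13.8 and 10.1 CPM in the same order. Both were low with the Trim28 hairpin alone, and higher with both. The mean of Tsga8 with both hairpins, 2.47 CPM, was near that of its controls, 2.57 CPM, while that of Ttc29, 12.02 CPM, exceeded its control mean of 7.53 CPM, and all 3 of these libraries lay above all 3 controls. Without Trim28 replicate 1 the change of Ttc29 with the Trim28 hairpin was -4.65, against -4.06 ± 0.31 with all libraries. Against the Trim28 hairpin alone the difference was 4.52 ± 0.37 (adjusted p = 2.78e-06) for Tsga8 and 4.74 ± 0.29 (adjusted p = 4.9e-07) for Ttc29, in a comparison in which 21.7% of all tested genes were called. This comparison uses the same Trim28 libraries as the first, so the 2 are not independent. The libraries with both hairpins also held more Trim28 transcript, 103 ± 6.41 CPM, so the levels of both targets differed between the groups. The opposite pattern was seen in S100a9, with a mean of 0.463 CPM with both hairpins, and in Scn10a, with 17.1 CPM. Their differences against the Trim28 hairpin alone were -2.56 ± 0.29 and -1.16 ± 0.15, and that of Fer1l4 was -1.44 ± 0.15. Gsdma3, Cdhr2, Dnah6 and Dnah8 were not called there, at -0.01 ± 0.14, -0.05 ± 0.14, -0.05 ± 0.22 and 0.21 ± 0.13.

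Among genes with at least 50 CPM in the higher group the changes were smaller. Cnfn, a protein of the cornified envelope, showed the largest rise, from 15.7, 10.6 and 13.2 to 91.3, 112 and 105 CPM (2.95 ± 0.12, adjusted p = 1.08e-10). Tgm3, the transglutaminase that crosslinks that envelope, rose from 44.1, 48.3 and 44.6 to 118, 151 and 151 CPM (1.61 ± 0.096, adjusted p = 6.98e-09). Both are products of terminal keratinocyte differentiation, and both were under 1 CPM in uninduced cells. Them5, a mitochondrial thioesterase, rose from 7.84, 8.26 and 12.96 to 64.7, 72.6 and 68.6 CPM (2.80 ± 0.15, adjusted p = 1.12e-08), and Aldh6a1, a mitochondrial enzyme of valine breakdown, from 20.2, 22.1 and 19.07 to 107, 115 and 111 CPM (2.45 ± 0.10, adjusted p = 1.2e-10). Npc1l1, the cholesterol uptake transporter of the gut, rose by 1.94 ± 0.16, the guanine deaminase Gda by 1.75 ± 0.12 and the matrix protein gene Thsd4 by 1.46 ± 0.11, with adjusted p = 3.58e-07, 4.88e-08 and 8.76e-08. In all of these the 3 knockdown libraries lay above the 3 controls, as the naming rule required. Beyond Trim28 itself, the abundant falls were led by Slc16a3, the lactate exporter, and Krt7, a simple-epithelium keratin, which fell from 50.2, 46.2 and 73.6 to 10.3, 12.2 and 15.6 CPM (-2.16 ± 0.17, adjusted p = 1.71e-07). The chemokine Cxcl12 changed by -1.74 ± 0.16, the kallikrein protease Klk14 by -1.67 ± 0.17 and the secreted protein gene Pi16 by -1.64 ± 0.13 (adjusted p = 6.43e-07, 1.93e-06 and 1.78e-07).

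Of 46 tested partner genes of Trim28, 3 rose, 9 fell and 34 were not called, with a median of -0.08. The shares were 6.52% risen and 19.6% fallen, against 13.1% and 11.8% of all tested genes. None of the 6 genes of the histone deacetylase complex, the 5 of the HUSH silencing complex or the 5 of the histone variant and remodeller group was called by edgeR, nor at an unadjusted p under 0.05, nor by DESeq2 or limma-voom. Of the 6 DNA methylation genes 4 fell (66.7%, against 11.8% of all tested genes), with a median of -0.44. The de novo methyltransferase Dnmt3a stood at 94.1, 89.04 and 97.9 CPM in the controls and 68.4, 70.6 and 66.8 CPM in the knockdown (-0.45 ± 0.072, adjusted p = 0.000214), and Dnmt3b at 21.6, 23.3 and 27.6 CPM against 14.03, 12.9 and 15.9 CPM (-0.76 ± 0.16, adjusted p = 0.00196). Each was lower in all 3 knockdown libraries than in any control. Atf7ip, which stabilises Setdb1, fell from 116, 127 and 112 to 85.1, 90.3 and 93.8 CPM (-0.40 ± 0.071, adjusted p = 0.000601), while its relative Atf7ip2 rose from 1.70, 1.86 and 2.05 to 6.16, 7.57 and 7.82 CPM (1.93 ± 0.17, adjusted p = 6.14e-07). Outside the naming rule, Trim24, a TIF1 relative of Trim28, rose by 0.64 ± 0.071 (adjusted p = 5.59e-06), and Zfp57, the zinc finger protein that brings Trim28 to imprinted regions, was not called, at 82.8, 99.98 and 100.5 CPM against 103, 99.2 and 97.1 CPM. Zfp809, which brings Trim28 to retroviral primer sites, rose by 0.70 ± 0.11 (adjusted p = 0.000144).

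Imprinted genes, read from only one parental copy, moved in both directions. Of 51 tested, 10 rose, 15 fell and 26 were not called, with a median of -0.05; over all tested genes the shares were 13.1% and 11.8%, here 19.6% and 29.4%. Paternally expressed genes (5 risen and 9 fallen of 25) and maternally expressed ones (5 and 6 of 26) both did so. The non-coding H19, maternally expressed, stood at 4221, 2974 and 3634 CPM in the controls and at 1535, 1150.3 and 1284 CPM in the knockdown (-1.45 ± 0.13, adjusted p = 6.47e-07). Its paternally expressed neighbour Igf2, a growth factor, stood at 1966, 1279 and 1522 CPM against 734, 490.1 and 569.9 CPM (-1.41 ± 0.17, adjusted p = 1.18e-05). So both genes of this locus were lower in the knockdown, with similar levels in controls and uninduced cells: uninduced means were 3783 CPM for H19 and 1575 CPM for Igf2. Peg10, a retrotransposon-derived gene of the placenta, fell from 128, 126 and 132 to 47.2, 37.2 and 37.7 CPM (-1.66 ± 0.086, adjusted p = 1.22e-09), and the amino acid transporter Slc38a4 from 127, 131 and 124 to 84.2, 68.6 and 66.6 CPM (-0.80 ± 0.086, adjusted p = 4.91e-06). Tspan32 rose from 9.30, 10.8 and 10.7 to 16.95, 19.9 and 19.03 CPM (0.86 ± 0.11, adjusted p = 2.41e-05). Outside the naming rule, Mest changed by -1.45 ± 0.19 and Phlda2 by -1.42 ± 0.21, and Zdbf2 rose by 1.34 ± 0.23 and Peg3 by 0.60 ± 0.12 (adjusted p = 4.22e-05, 0.000126, 0.000376 and 0.00135). Without both parental alleles being read apart, these counts do not say which copy changed.

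**Figure D3:**
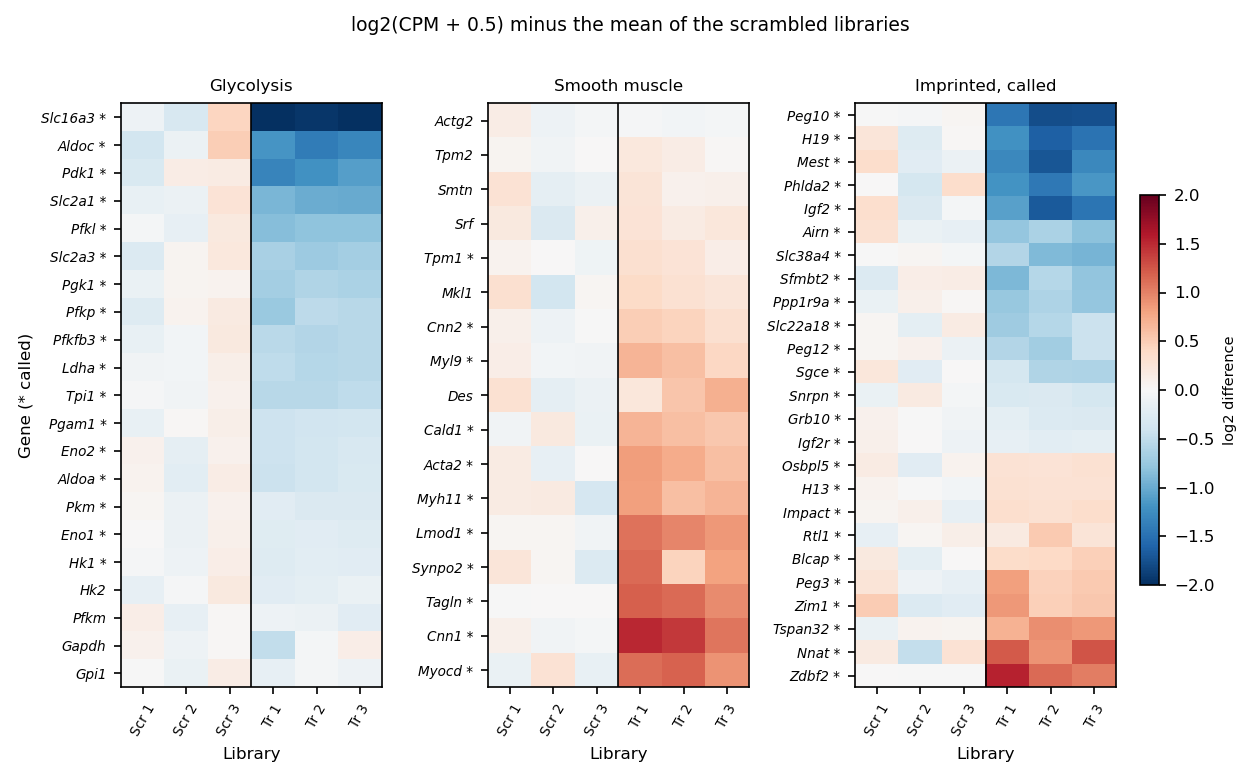
Log2(CPM + 0.5) minus the mean of the 3 scrambled libraries, by library (columns: scrambled 1 to 3, Trim28 1 to 3), for tested glycolysis genes, tested smooth muscle genes and called imprinted genes; called genes carry an asterisk and the colour scale ends at 2 and -2. Glycolysis genes are mostly blue and smooth muscle genes mostly red in the knockdown libraries, while imprinted genes hold both colours.

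Genes of glucose uptake and breakdown fell almost as a block. Of 21 tested glycolysis genes 17 fell, 4 were not called and none rose (edgeR, with none at an unadjusted p under 0.05 nor by DESeq2 or limma-voom), and the median was -0.54, against a share of 11.8% fallen and a median of -0.00 over all tested genes. Slc16a3, which exports lactate, stood at 69.5, 59.4 and 100.5 CPM in the controls and 17.3, 19.04 and 14.6 CPM in the knockdown (-2.18 ± 0.20, adjusted p = 1.03e-06). Pfkl, a subunit of phosphofructokinase, stood at 188, 172 and 222 CPM against 106, 109.8 and 109.8 CPM (-0.84 ± 0.090, adjusted p = 4.55e-06), and Pgk1, phosphoglycerate kinase, at 285, 325 and 327 CPM against 194, 206 and 199.9 CPM (-0.64 ± 0.067, adjusted p = 3.17e-06). In all of these no knockdown library reached the lowest control. Others, named outside the rule, were the glucose transporter Slc2a1 with -0.99 ± 0.11, the kinase Pdk1, which keeps pyruvate out of the mitochondrion, with -1.24 ± 0.15, and Aldoc with -1.40 ± 0.23. Lactate dehydrogenase Ldha changed by -0.55 ± 0.068 and Tpi1 by -0.54 ± 0.064, at high levels of 1009 and 493 CPM in the controls. Gapdh, which has many near-identical copies in the mouse genome, was counted at only 5.38 ± 0.4 CPM in the controls and 4.95 ± 1.16 CPM in the knockdown, so its value is uncertain. Control replicate 3 was the highest control for Slc16a3, Pfkl, Pgk1 and Slc2a1. The number fallen lay between 15 and 18 in the alternatives, those without each library included. Of 82 tested nuclear genes of the respiratory chain 3 fell and none rose (none at an unadjusted p under 0.05 nor by DESeq2 or limma-voom). The 3 were Cox6c (-0.38 ± 0.067), Ndufa4l2 (-2.32 ± 0.48) and Ndufv3 (-0.31 ± 0.085). Without control replicate 3 the change of Ndufa4l2 was -1.56. Ndufv3 was not called without Trim28 replicate 2 (-0.28, adjusted p = 0.0646; range 0.00377 to 0.0646). None of 13 genes of the mitochondrial genome was called by edgeR, and 1 was lower at an unadjusted p under 0.05, with none by DESeq2 or limma-voom. Without the filter on low counts 4 of them fell, and 4 fell without control replicate 1. The difference between these lists was not tested.

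Smooth muscle genes rose. Of 17 tested contractile genes 11 rose, 6 were not called and none fell (edgeR, with none at an unadjusted p under 0.05 nor by DESeq2 or limma-voom), with a median of 0.58, against 13.1% risen over all tested genes. Tagln (transgelin), an actin-binding protein, stood at 336, 337 and 338 CPM in the controls and 774, 736 and 650.5 CPM in the knockdown (1.096 ± 0.082, adjusted p = 9.74e-08). Cnn1 (calponin) stood at 38.4, 34.2 and 34.9 CPM against 103, 96.6 and 75.9 CPM (1.35 ± 0.11, adjusted p = 2.97e-07), and Lmod1 (leiomodin) at 10.1, 10.05 and 9.26 CPM against 21.4, 19.8 and 18.2 CPM (1.02 ± 0.10, adjusted p = 2e-06). In the knockdown, replicate 1 was the highest and replicate 3 the lowest for each of the 3 genes, but all lay above the controls. Outside the naming rule, smooth muscle actin Acta2 rose by 0.72 ± 0.10, and Myocd, the master regulator of this programme, from 0.0585, 0.243 and 0.0501 to 0.825, 0.887 and 0.642 CPM (2.86 ± 0.58, adjusted p = 0.00167). Actg2, another smooth muscle actin, was not called, with 36.2, 30.5 and 31.8 CPM against 32.1, 31.6 and 31.9 CPM. Uninduced cells held these transcripts too: their means were 886 CPM for Tagln, 76.5 for Cnn1 and 1747 for Acta2, so the knockdown libraries lay between the controls and uninduced cells for Tagln and Acta2. The sum of skeletal and heart muscle markers was also higher, at 27.7, 26.0 and 29.0 CPM in the controls and 49.5, 57.2 and 52.9 CPM in the knockdown. The part of these markers in this result was not tested. The defining muscle factors Myod1, Myog and Myf5, as well as Myh6 and Nkx2-5 of heart muscle, were listed at 0 in all 6 libraries. Among 5 tested genes of that list Acta1 (1.29 ± 0.15, adjusted p = 1.09e-05) and Tnnt2 (1.32 ± 0.21, adjusted p = 0.000187) rose (40%, against 13.1% of all tested genes). The other 3 were not called, 10 more were too low to test, and the median was -0.02. The number of smooth muscle genes risen lay between 10 and 14 in the alternatives.

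TGF-beta and BMP signalling shares targets with that programme. Of 53 tested genes of the pathway, 16 rose, 12 fell and 25 were not called, shares of 30.2% and 22.6% against 13.1% and 11.8% of all tested genes. By role, ligands were split with 4 risen and 4 fallen of 15, receptors and mediators gave 2 and 4 of 15, inhibitors 3 and 3 of 12, and targets 7 and 1 of 11. The BMP target Id1 stood at 68.4, 52.2 and 58.1 CPM in the controls and 103, 108 and 100.4 CPM in the knockdown (0.80 ± 0.098, adjusted p = 1.72e-05). Among ligands Bmp6 rose from 4.44, 3.89 and 4.50 to 12.1, 14.5 and 14.7 CPM (1.67 ± 0.13, adjusted p = 1.97e-07) and Bmp2 fell from 17.1, 17.7 and 16.1 to 8.51, 9.64 and 10.6 CPM (-0.82 ± 0.12, adjusted p = 0.000105). The values of these 3 genes did not overlap between groups. The number risen in the pathway was 8 without control replicate 3, and 9 without Trim28 replicate 1 or 2.

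The pluripotency network leaned down. Of 32 tested genes 1 rose, 11 fell and 20 were not called, with a median of -0.28. These are shares of 3.12% risen and 34.4% fallen, against 13.1% and 11.8% of all tested genes. Another 11 in the table were too low to test, Dppa2, Dppa3, Dppa4 and Nodal among them. Lefty2, an inhibitor of Nodal signalling, stood at 3.57, 6.16 and 5.91 CPM in the controls and 0.571, 0.887 and 1.17 CPM in the knockdown (-2.54 ± 0.30, adjusted p = 1.09e-05), and the phosphatase Alpl, an early reprogramming marker, at 23.4, 19.5 and 20.97 CPM against 10.2, 11.3 and 10.2 CPM (-1.01 ± 0.12, adjusted p = 1.75e-05). Outside the naming rule, the naive factor Esrrb stood at 11.9, 13.3 and 15.3 CPM against 5.21, 3.37 and 6.01 CPM (-1.47 ± 0.25, adjusted p = 0.000335), and Dppa5a at 4.21, 4.86 and 6.46 CPM against 1.90, 0.828 and 2.28 CPM (-1.64 ± 0.27, adjusted p = 0.000299). These genes were lower in all 3 knockdown libraries. Nanog, a core factor of the network, overlapped between the groups at 5.32, 7.53 and 9.26 CPM against 4.82, 5.26 and 7.59 CPM and was not called (adjusted p = 0.343). The 1 rise was Gdf3, a TGF-beta family ligand, at 0.702, 0.972 and 1.101 CPM against 2.41, 1.60 and 2.04 CPM (1.11 ± 0.30, adjusted p = 0.0127). It was not called without control replicate 1 (0.92, adjusted p = 0.052) or Trim28 replicate 1 (0.96, adjusted p = 0.0623), and over all alternatives its adjusted p ran from 0.0017 to 0.0623. Without control replicate 3 the number fallen was 7. Fibroblast marker sums, given above and made up in large part of Col1a1, were lower in the knockdown libraries than in control replicates 1 and 3. Their part here was not tested.

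Epithelial genes also leaned down, though induced cells kept an epithelial profile. Of 37 tested genes of simple epithelium 1 rose and 12 fell (2.70% and 32.4%, against 13.1% and 11.8% of all tested genes), with a median of -0.21. Rab25, a GTPase of epithelial membrane traffic, stood at 16.7, 17.2 and 22.4 CPM in the controls and 7.36, 8.87 and 9.52 CPM in the knockdown (-1.13 ± 0.16, adjusted p = 6.68e-05), and the tight junction protein Cldn6 at 26.2, 22.6 and 35.2 CPM against 15.6, 14.7 and 15.6 CPM (-0.88 ± 0.14, adjusted p = 0.000289). The number fallen was 7 without control replicate 3 and also 7 without any 1 of the 3 knockdown libraries. Of 32 tested genes of stratified epithelium 5 rose and 14 fell (15.6% and 43.8%), with a median of -0.25. The desmosomal cadherins Dsg2 and Dsc2, which bind epithelial cells to each other, stood at 38.4, 44.6 and 40.9 and 69.2, 105 and 93.8 CPM in the controls and at 14.6, 13.4 and 16.1 and 29.9, 31.5 and 34.3 CPM in the knockdown. Their changes were -1.49 ± 0.15 (adjusted p = 2.38e-06) and -1.48 ± 0.15 (adjusted p = 2.56e-06), and Pkp1, a desmosome plaque protein, changed by -1.08 ± 0.12 (adjusted p = 7.28e-06). Lamb3, a chain of the basement membrane laminin of skin, went the other way, from 52.9, 45.2 and 50.8 to 132, 135 and 125 CPM (1.39 ± 0.079, adjusted p = 3.5e-09). Summed over 6 epithelial markers the controls held 1575.7, 1740.1 and 1988.6 CPM and the knockdown libraries 1604.1, 1818.6 and 1724.4 CPM, which overlap, and uninduced cells held 7.31 to 8.35 CPM.

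Genes of fibroblasts and their matrix changed often and in both directions. Of 74 tested, 19 rose, 28 fell and 27 were not called, with a median of -0.14. The shares were 25.7% risen and 37.8% fallen, against 13.1% and 11.8% of all tested genes. Collagens gave 3 risen and 8 fallen of 17, other matrix proteins 5 and 11 of 25, matrix enzymes 5 and 4 of 13, and fibroblast factors and receptors 6 and 5 of 19. Dcn (decorin), a collagen-binding proteoglycan, stood at 232, 233 and 231 CPM in the controls and 124, 110.2 and 122 CPM in the knockdown (-0.97 ± 0.076, adjusted p = 1.6e-07). Vcan (versican) stood at 576, 572 and 489 CPM against 269, 258 and 269 CPM (-1.04 ± 0.086, adjusted p = 2.94e-07), and the collagen crosslinking enzyme Lox at 1157, 1172 and 1022 CPM against 654, 583 and 634 CPM (-0.84 ± 0.074, adjusted p = 5.56e-07). Their controls were close together. Col1a1, the main collagen and outside the naming rule, stood at 9006, 5455 and 7304 CPM against 5479.8, 5040.1 and 4904 CPM, with control replicate 2 inside the knockdown range, and changed by -0.50 ± 0.14 (adjusted p = 0.0188). Mmp10, a matrix-degrading protease, rose from 4.68, 8.51 and 6.06 to 23.998, 24.7 and 26.1 CPM (1.99 ± 0.16, adjusted p = 2.45e-07). Thbs1 (thrombospondin), outside the rule as well, rose from 2946, 2516 and 2346 to 5513, 5001 and 4631 CPM (0.96 ± 0.091, adjusted p = 1.28e-06). Of the 7 fibroblast markers summed above, 3 rose and 3 fell, and their part in these changes was not tested. Without control replicate 3 the number risen was 11.

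Cell cycle genes fell by small amounts. Of 38 tested DNA replication genes 18 fell and 1 rose, with a median of -0.25, and of 40 mitosis genes 27 fell and none rose (edgeR, with none at an unadjusted p under 0.05 nor by DESeq2 or limma-voom), with a median of -0.31. The shares fallen were 47.4% and 67.5%, against 11.8% of all tested genes. Rrm1, a subunit of ribonucleotide reductase, stood at 163, 186 and 188 CPM in the controls and 119, 107 and 113 CPM in the knockdown (-0.66 ± 0.073, adjusted p = 5.54e-06). Cdc6, which loads the replicative helicase, changed by -0.78 ± 0.11 (adjusted p = 6.29e-05) and the histone chaperone subunit Chaf1b by -0.61 ± 0.095 (adjusted p = 0.000186). Among mitosis genes, cyclin B1 (Ccnb1) stood at 67.4, 75.4 and 78.2 CPM against 50.9, 49.4 and 58.3 CPM (-0.48 ± 0.094, adjusted p = 0.00131), the kinesin Kif20a changed by -0.38 ± 0.069 (adjusted p = 0.000636) and Racgap1, needed for cytokinesis, by -0.38 ± 0.072 (adjusted p = 0.000888). Each of these genes was lower in all 3 knockdown libraries, by less than 2-fold. Lig1, the replicative DNA ligase, was the 1 rise (0.25 ± 0.070, adjusted p = 0.0159), and it was not called without control replicate 1 (0.18, adjusted p = 0.0859) or without Trim28 replicate 1 or 2 (0.23 in both, adjusted p = 0.0736 and 0.0808; range over all alternatives 0.0121 to 0.0859). The counts leaned on single libraries: the number of fallen replication genes was 8 without control replicate 3 or Trim28 replicate 1 and 9 without Trim28 replicate 2. The number of fallen mitosis genes was 14 without control replicate 3 and 16 without Trim28 replicate 2.

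Of 31 tested genes listed for p53, the tumour suppressor that limits reprogramming, 9 rose and 2 fell (29.0% and 6.45%, against 13.1% and 11.8% of all tested genes). Besides targets, the 31 include Trp53, the gene of p53 itself, which was not called, and its regulator Mdm4, 1 of the 2 fallen. None of 7 CDK inhibitor genes was called by edgeR (3 were lower at an unadjusted p under 0.05, none by DESeq2 or limma-voom). Btg2, an antiproliferative gene, stood at 266, 256 and 267 CPM in the controls and 456, 457 and 446 CPM in the knockdown (0.78 ± 0.056, adjusted p = 5.43e-08), Ei24 at 177, 189 and 192 CPM against 252, 266 and 263 CPM (0.49 ± 0.058, adjusted p = 1.22e-05), and the death receptor Tnfrsf10b at 69.8, 71.1 and 66.97 CPM against 83.8, 82.1 and 84.6 CPM (0.27 ± 0.063, adjusted p = 0.00477). These rises were small and without overlap. Mdm4, a negative regulator of p53, changed by -0.37 ± 0.099 (adjusted p = 0.012). Cdkn1a (p21), a p53 target counted here with the CDK inhibitors and outside the naming rule, was not called at 668, 566 and 662 CPM against 694, 677 and 683 CPM. The number fallen in the whole list of 38 was 1 without control replicate 1 and 6 without control replicate 2.

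Interferon and antigen presentation genes leaned up. Of 63 tested, 19 rose, 3 fell and 41 were not called, with a median of 0.21. The shares were 30.2% risen and 4.76% fallen, against 13.1% and 11.8% of all tested genes. Effectors gave 12 risen of 35, antigen presentation genes 5 of 13, and sensors and transcription factors 2 of 15. H2-K1, a class I histocompatibility heavy chain, stood at 60.2, 51.6 and 60.2 CPM in the controls and 100.4, 109 and 110.0 CPM in the knockdown (0.89 ± 0.075, adjusted p = 3.37e-07). Irgm1, an immunity GTPase, stood at 20.8, 26.1 and 21.2 CPM against 34.2, 38.5 and 38.9 CPM (0.72 ± 0.096, adjusted p = 4.04e-05), and Oas2, a sensor of double-stranded RNA, at 0.76, 1.38 and 1.80 CPM against 4.25, 4.43 and 5.02 CPM (1.78 ± 0.24, adjusted p = 4.16e-05). The groups did not overlap for any of these genes. Levels of many members were low, with Oas2 under 10 CPM in every library and Isg15, named outside the rule, at 2.92, 2.19 and 2.60 CPM against 4.63, 4.91 and 5.60 CPM. Bst2 (tetherin), which holds budding virus at the membrane, fell from a mean of 44.7 ± 5.82 to 29.6 ± 2.43 CPM (-0.59 ± 0.11, adjusted p = 0.000902). The number risen lay between 14 and 23 in the alternatives. The number fallen was 1 without any 1 of the 3 knockdown libraries. Counts of class I genes are uncertain, since they have near-identical copies.

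Genes of germ cells and of the cleavage-stage embryo, many of which are silenced by DNA methylation or by Trim28 in other cells, were mostly not read. Only 17 of 49 germline genes could be tested, of which 5 rose and 5 fell (29.4% each, against 13.1% and 11.8% of all tested genes). Piwil2, which binds small RNAs against transposons, stood at 57.1, 69.5 and 67.97 CPM in the controls and 120.4, 119 and 126 CPM in the knockdown (0.91 ± 0.12, adjusted p = 2.61e-05), and Tdrd9, a helicase of the same pathway, at 1.29, 1.13 and 1.001 CPM against 3.05, 3.13 and 2.63 CPM (1.36 ± 0.20, adjusted p = 0.000114). A further partner, Tdrd1, rose by 0.89 ± 0.22 (adjusted p = 0.00788), but was not called without Trim28 replicate 2 (0.74, adjusted p = 0.057; range 0.000954 to 0.057). Ddx4, Dazl and Sycp3, classical germ cell genes, were too low to test. The number risen was 3 without Trim28 replicate 2, and the number fallen 2 without control replicate 3 and 3 without Trim28 replicate 1. Of the 19 cleavage-stage genes counted, 17 were too low to test, the Zscan4 genes included, and the tested ones, Zfp352 and Sp110, were not called by edgeR (-0.19 ± 0.34 and -0.36 ± 0.37), nor at an unadjusted p under 0.05, nor by DESeq2 or limma-voom.

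Gasdermins, the family of Gsdma3, had 9 genes in the table and 6 tested. That count includes members tested only because the knockdown raised them. Of the 6, 4 rose and 1 fell (66.7% and 16.7%, against 13.1% and 11.8% of all tested genes). Gsdmc2 stood at 0.292, 0.243 and 0.25 CPM in the controls and 5.46, 6.03 and 6.13 CPM in the knockdown (4.44 ± 0.27, adjusted p = 5.07e-08), and its neighbour Gsdmc3 at 0.234, 0 and 0.2 CPM against 1.02, 1.42 and 1.46 CPM (2.96 ± 0.54, adjusted p = 0.000963). Gsdma (chromosome 11, 98664351 to 98677708), separated from Gsdma3 by Gsdma2, fell from 2.05, 1.62 and 2.002 to 1.02, 0.946 and 0.934 CPM (-0.98 ± 0.25, adjusted p = 0.00951). Gsdma was not called by DESeq2 (-0.98, adjusted p = 0.0596, the highest of 13 alternatives, with 0.00767 the lowest). So members of the same cluster went in opposite directions. The other risen member was Gsdmd, the executioner of pyroptosis and outside the naming rule, at 16.6, 15.8 and 14.6 CPM against 23.2, 21.05 and 20.5 CPM (0.47 ± 0.093, adjusted p = 0.00152), and Dfna5, also called Gsdme, was not called (-0.40 ± 0.16). The genes of this family are close copies of each other, so reads may be split between them.

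Zinc finger genes, the class that includes the KRAB proteins, gave 27 risen (8.26%) and 13 fallen (3.98%) of 327 tested genes named Zfp, with a median of 0.02. Over all tested genes the shares were 13.1% and 11.8%. Among them Zfp109 stood at 3.51, 3.16 and 3.35 CPM in the controls and 10.4, 12.7 and 11.2 CPM in the knockdown (1.76 ± 0.16, adjusted p = 6.29e-07), and Zfp454 at 2.22, 2.19 and 2.85 CPM against 6.86, 8.81 and 6.83 CPM (1.61 ± 0.17, adjusted p = 4.65e-06). Zfp9 went down from 27.1, 26.98 and 26.7 to 17.3, 16.9 and 17.3 CPM (-0.65 ± 0.089, adjusted p = 5.36e-05). The 3 genes did not overlap between groups. Without control replicate 3 the numbers were 13 risen and 8 fallen, without control replicate 1 28 fell, and without Trim28 replicate 1, 2 or 3 the number risen was 16, 17 and 16. Clustered protocadherins, neuronal adhesion proteins, gave 1 risen and 5 fallen of 15 (6.67% and 33.3%, against 13.1% and 11.8% of all tested genes). Pcdhb5 changed by -1.44 ± 0.27 (adjusted p = 0.000781), Pcdhb17 by -0.84 ± 0.20 (adjusted p = 0.00542) and Pcdhb19 by -0.77 ± 0.18 (adjusted p = 0.00522), and Pcdhb22 rose by 0.62 ± 0.13 (adjusted p = 0.00224). Their counts are uncertain because members of the cluster share sequence. Of 85 cytosolic ribosomal protein genes 1 rose and 1 fell: Rpl39l, a copy of Rpl39 used in testis, went from 3.16, 2.92 and 2.75 to 10.1, 10.9 and 11.97 CPM (1.90 ± 0.15, adjusted p = 1.97e-07), and Rps23 from 195, 161 and 197 to 138, 141 and 151 CPM (-0.36 ± 0.088, adjusted p = 0.00595). The number of ribosomal genes fallen was 3 without control replicate 1 and 2 without control replicate 2.

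**Figure D4:**
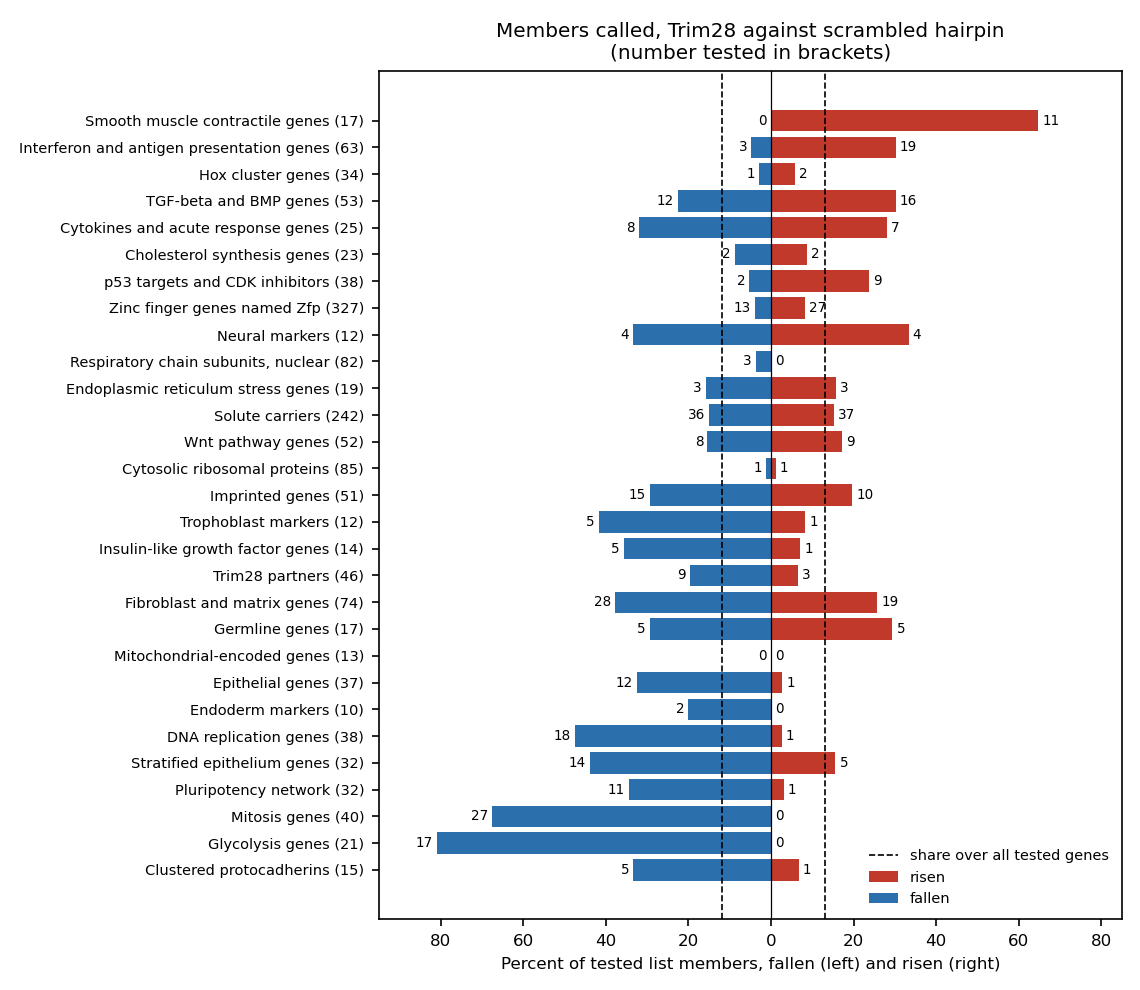
Percent of tested members called as fallen (blue, left) and risen (red, right) for each gene list with at least 10 tested members, with counts at the bar ends, lists ordered by median log2 change and dashed lines at the shares over all tested genes (11.8% and 13.1%). Glycolysis and mitosis genes reach farthest to the left and smooth muscle genes farthest to the right, while ribosomal, respiratory chain and zinc finger genes stay inside the dashed lines.

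Growth factor and cytokine genes gave mixed counts. Of 14 genes of the insulin-like growth factor family 5 fell and 1 rose (35.7% and 7.14%, against 11.8% and 13.1% of all tested genes). Besides Igf2, the binding protein Igfbp4 went from 293, 164 and 191 to 139, 107 and 115 CPM (-0.84 ± 0.16, adjusted p = 0.000895). The number fallen was 2 without control replicate 1 or Trim28 replicate 2 and 3 without Trim28 replicate 3, and the 1 rise, the receptor gene Igf1r (0.28 ± 0.085, adjusted p = 0.0253), was not called without control replicate 2 or 3 or Trim28 replicate 1 or 2 (0.23 to 0.26, adjusted p 0.00718 to 0.111 over all alternatives). Of 25 cytokine and immediate early genes 7 rose and 8 fell (28% and 32%, against 13.1% and 11.8% of all tested genes). The chemokine Cxcl5 fell from 55.9, 44.5 and 33.9 to 6.41, 7.75 and 7.59 CPM (-2.62 ± 0.31, adjusted p = 1.17e-05) and Il33, an alarmin, from 21.9, 19.3 and 18.7 to 8.13, 7.33 and 8.58 CPM (-1.32 ± 0.12, adjusted p = 1.02e-06). Lif, the cytokine that maintains mouse embryonic stem cells, rose from 27.2, 28.2 and 25.7 to 48.1, 50.02 and 44.5 CPM (0.82 ± 0.096, adjusted p = 1.11e-05). All 3 were without overlap. The number risen here was 3 without control replicate 3 or Trim28 replicate 1 or 2, and 4 without Trim28 replicate 3, and the number fallen was 5 without control replicate 1 or Trim28 replicate 2. Of 52 Wnt pathway genes 9 rose and 8 fell, with shares close to the background; the ligand Wnt7b changed by -1.62 ± 0.21 (adjusted p = 2.34e-05), the receptor Lgr4 rose by 0.54 ± 0.069 (adjusted p = 2.63e-05) and the target Ccnd1 (cyclin D1) by 0.41 ± 0.057 (adjusted p = 5.13e-05). Without Trim28 replicate 2 the number of Wnt genes fallen was 5.

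Solute carriers and cholesterol synthesis genes were near the background of 13.1% risen and 11.8% fallen. Of 242 solute carriers 37 rose and 36 fell (15.3% and 14.9%). Slc15a3, a peptide transporter of endosomes, rose from 6.08, 5.35 and 4.91 to 16.2, 15.4 and 15.5 CPM (1.53 ± 0.12, adjusted p = 1.97e-07), the fucose carrier Slc35c1 by 1.28 ± 0.095 (adjusted p = 8.13e-08) and the nucleoside carrier Slc29a3 by 0.76 ± 0.082 (adjusted p = 5.19e-06), while the zinc and manganese carrier Slc39a8 fell from 12.6, 13.9 and 12.3 to 3.81, 3.07 and 3.79 CPM (-1.85 ± 0.15, adjusted p = 1.97e-07). Of 23 cholesterol synthesis genes 2 rose and 2 fell (8.70% each). Cyp51, an enzyme of the pathway, fell from 134, 163 and 143 to 89.01, 88.8 and 92.8 CPM (-0.70 ± 0.087, adjusted p = 1.86e-05). The number of cholesterol genes fallen was 5 without control replicate 1 and 1 without control replicate 3, and the number risen 1 without any 1 of the knockdown libraries. Of 19 endoplasmic reticulum stress genes 3 rose and 3 fell, with Herpud1 at 0.56 ± 0.086 (adjusted p = 0.000138) and Trib3 at -0.63 ± 0.10 (adjusted p = 0.000334). The number of these fallen was 6 without control replicate 2. Of 34 Hox genes 2 rose and 1 fell, and none of the 3 (Hoxd13, Hoxa9 and Hoxc4, at 0.45 ± 0.14, 0.31 ± 0.10 and -0.37 ± 0.12) kept its call in every fit that left out 1 library. Of 5 nuclear long noncoding transcripts 2 rose and 1 fell, and Xist, the fallen one of 5 sex-linked transcripts, changed by -0.29 ± 0.094 (adjusted p = 0.0308), a call lost without control replicate 2 and without each knockdown library in turn (adjusted p 0.000534 to 0.0889 over all alternatives).

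Markers of other cell types were read at levels that differed widely between the lists. Macrophage markers, 7 of 15 tested with 1 risen and 2 fallen, summed to 63.7, 66.8 and 72.5 CPM against 62.4, 69.9 and 71.6 CPM. Csf1r fell from 2.51, 2.19 and 2.40 to 0.889, 0.887 and 1.05 CPM (-1.33 ± 0.21, adjusted p = 0.000187) and Itgam changed by -0.63 ± 0.18 (adjusted p = 0.0167). Itgam was not called without Trim28 replicate 1 (-0.59, adjusted p = 0.0605; range 0.00193 to 0.0605). Endothelial markers summed to 72.6, 87.6 and 85.2 CPM against 97.3, 96.8 and 93.3 CPM. Of 8 tested 3 rose (37.5%, against 13.1% of all tested genes) and 5 were not called, with a median of 0.07. The risen ones were the receptors Tie1 (0.93 ± 0.16, adjusted p = 0.000537), Tek (0.39 ± 0.10, adjusted p = 0.0124) and Kdr (0.63 ± 0.22, adjusted p = 0.0458). Without control replicate 1 or 3 only 1 of these receptors was called, and Kdr was called in 4 of 14 alternatives (adjusted p 0.0194 to 0.213). Trophoblast markers summed to 219, 211 and 272 CPM against 169, 179 and 173 CPM, without overlap. Most of that difference lies in Krt7, also a keratin of simple epithelium, and Hand1, both named above among the largest falls. Of 12 tested 5 fell and 1 rose (41.7% and 8.33%, against 11.8% and 13.1% of all tested genes), 6 were not called, and the median was -0.05. The 1 rise was Eomes. It was not called without control replicate 3 (1.01, adjusted p = 0.0678) or Trim28 replicate 1 (0.97, adjusted p = 0.0653). Besides Krt7 and Hand1 the fallen ones included Tfap2c, a trophoblast and germ cell factor, at 8.07, 8.99 and 11.5 CPM against 3.17, 3.19 and 3.09 CPM (-1.60 ± 0.23, adjusted p = 0.000123).

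Neural markers gave 4 risen and 4 fallen of 12 (33.3% each, against 13.1% and 11.8% of all tested genes). Their sums, 685, 862 and 812 CPM against 750, 849 and 785 CPM, overlapped. The neurofilament Nefl rose from 60.9, 82.1 and 70.02 to 125, 151 and 139 CPM (0.97 ± 0.098, adjusted p = 2.47e-06), Nefm by 1.77 ± 0.31 (adjusted p = 0.000525) and the tubulin Tubb3 by 0.65 ± 0.11 (adjusted p = 0.000421), in contrast to the falls of Cnksr2 and Rbfox3 above. Endoderm markers summed to 841, 702 and 713 CPM against 640, 586 and 609 CPM, a difference carried by Pdgfra. Of 10 tested 2 fell (20%, against 11.8% of all tested genes) and 8 were not called, with a median of -0.23. Pdgfra, which also marks fibroblasts, fell from 307, 249.5 and 227 to 130.2, 96.6 and 113 CPM (-1.20 ± 0.12, adjusted p = 2.85e-06), and Sox7 changed by -0.87 ± 0.21 (adjusted p = 0.00585), while Hnf4a was at 0 in all 6 libraries. Adipocyte markers summed to 13.5, 13.4 and 12.4 CPM against 10.9, 11.5 and 13.7 CPM, and of 4 tested 1 rose and 1 fell. The regulator Pparg changed by -1.61 ± 0.24 (adjusted p = 0.000135), while Lpl rose. Lpl was not called without control replicate 3 (0.38, adjusted p = 0.112) or Trim28 replicate 3 (0.44, adjusted p = 0.0897). The keratinocyte marker sum was 665, 636 and 677 CPM in the controls and 606, 683 and 632 CPM in the knockdown, and that of 7 pluripotent cell markers 469, 504 and 582 CPM against 550, 624 and 602 CPM. The latter sum is carried by Pou5f1, which the vector supplies. The part of other cell types in the results above was not tested.

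Changed genes sat next to each other in 11 places, where at least 3 tested neighbours all changed at least 2-fold in the same direction; 8 of these runs rose and 3 fell. On chromosome 13, the Cdhr2 run (54701461 to 54796776, 95 kb) also held Gprin1, Eif4e1b and Tspan17. Eif4e1b, an oocyte translation factor, stood at 0.175, 0.243 and 0.25 CPM in the controls and 4.57, 5.56 and 5.55 CPM in the knockdown (4.51 ± 0.34, adjusted p = 1.14e-07), Gprin1 changed by 1.51 ± 0.34 (adjusted p = 0.00373) and Tspan17, read at 19.9 CPM in the controls, by 1.11 ± 0.12 (adjusted p = 6.96e-06). The changes were of very different size within these 95 kb, with Cdhr2 and Eif4e1b nearly silent in the controls and Tspan17 not. On chromosome 15, Ly6c2 and Ly6g, surface proteins of myeloid cells, rose with a neighbouring unnamed gene (75076210 to 75159126, 82 kb). Ly6g stood at 0.409, 0.243 and 0.15 CPM against 2.79, 2.90 and 3.62 CPM (3.52 ± 0.32, adjusted p = 8.41e-07), Ly6c2 changed by 1.36 ± 0.25 (adjusted p = 0.000688) and the unnamed gene, RP23-458B6.16, went from 0.643, 0.405 and 0.501 to 13.6, 13.2 and 16.9 CPM (4.78 ± 0.22, adjusted p = 1.99e-09). The Gsdmc run lies on the same chromosome (63824346 to 63925666, 101 kb).

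Other risen runs held Adcy1, an adenylate cyclase, on chromosome 11 (6658521 to 7178506), from 5.15, 5.19 and 6.16 to 37.2, 35.7 and 34.9 CPM (2.70 ± 0.10, adjusted p = 3.71e-11), beside Ramp3 (1.18 ± 0.15, adjusted p = 3.15e-05). On chromosome 17 (34670535 to 34743882) the complement gene C4b rose from 4.91, 3.08 and 2.95 to 10.6, 11.9 and 9.81 CPM (1.56 ± 0.21, adjusted p = 3.89e-05) beside Tnxb and a Cyp21 pseudogene. On chromosome 6 (142085761 to 142322981) the organic anion transporters Slco1a5 (1.32 ± 0.17, adjusted p = 3.03e-05) and Slco1a6 (3.20 ± 0.43, adjusted p = 4.1e-05) rose. That run also held Gm20400 (1.72 ± 0.32), which lies inside Slco1a6 (142161493 to 142173796 within 142085761 to 142208521). Without Gm20400 the run would fall short of 3 genes. A pair of runs on chromosome 12, of 3 and 5 genes, held only predicted genes and clones. The most abundant was 2410018L13Rik, at 4.21, 3.65 and 4.404 CPM against 9.71, 10.2 and 10.5 CPM, and the longer run spread over 1981 kb. The 3 fallen runs were gene families or imprinted neighbours. On chromosome 18 (19960930 to 20410196) the desmosomal cadherins Dsc3, Dsc2, Dsg1a and Dsg1b changed by -1.16 ± 0.29, -1.48 ± 0.15, -2.36 ± 0.27 and -1.12 ± 0.21. On chromosome 7 (43690418 to 43773576) the kallikreins Klk14, Klk13 and Klk12 changed by -1.67 ± 0.17, -1.43 ± 0.21 and -1.04 ± 0.14, and Igf2 fell with its antisense transcript Igf2os (-1.13 ± 0.21) and Gm27786 (-1.01 ± 0.33). Igf2 and Igf2os overlap, and without strand their reads cannot be told apart. Gm27786 lies inside H19, as does Gm27483, which was not called (adjusted p = 0.0506) and so ended the run before H19. Gm27786 was not called in 6 of 13 alternatives (adjusted p 0.0178 to 0.151), among them those without control replicate 1 or 3 or Trim28 replicate 2 or 3. Near-identical neighbours, as in the Gsdmc, Ly6 and Slco1a runs, may share reads, so these runs are uncertain.

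**Figure D5:**
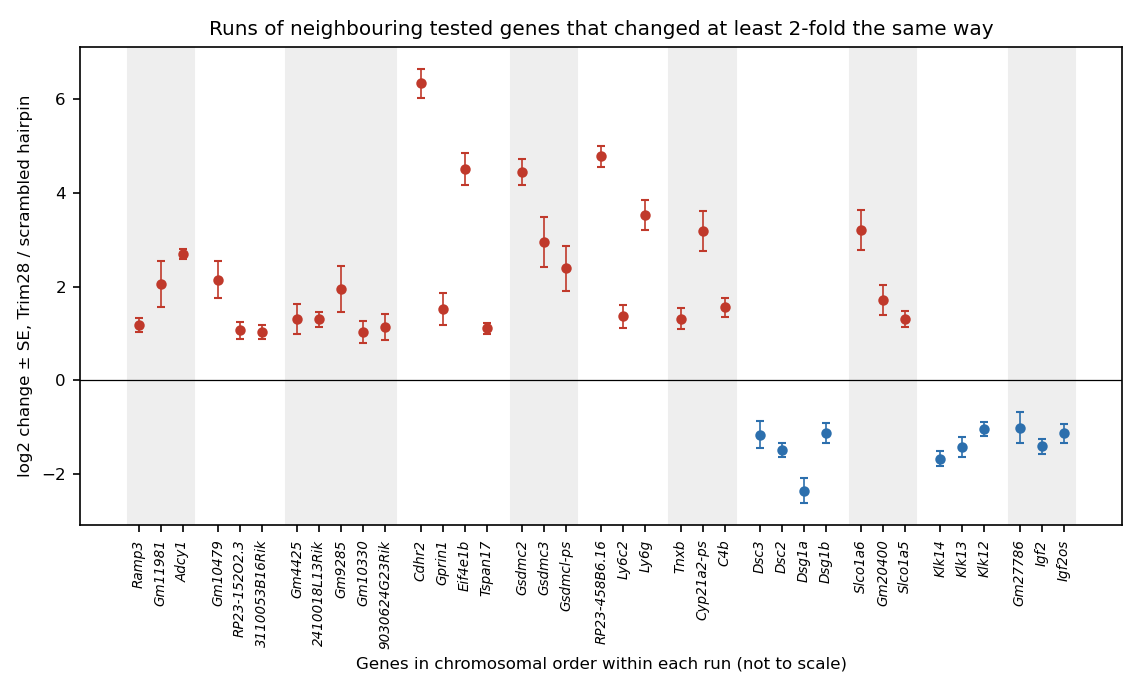
Log2 change with its SE (Trim28 hairpin over scrambled hairpin, n = 3 per group) for the genes of the 11 runs, in chromosomal order within a run and not to scale; shading separates runs. The 8 risen runs lie above 1 and the 3 fallen runs below -1 by construction, and sizes differ within runs, as between Cdhr2 and Tspan17.

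By chromosome, at least 2-fold rises were made by 28 of 546 tested genes on chromosome 13 (5.13%) and falls of that size by 7 (1.28%), against 2.96% and 2.54% of all tested genes. Chromosome 13 was chosen after its values were seen, as the highest of 20 for such rises, and the others ran from 1.39% to 4.35%. On the X chromosome, also chosen after its values were seen, 10.2% of 492 tested genes rose and 16.3% fell, against 13.1% and 11.8% over all tested genes. By class, 35 of 301 long intergenic non-coding genes rose and 17 fell, and 15 and 12 of 189 pseudogenes, which leaves 1830 and 1659 of 13686 protein-coding genes with most of the calls. Repeat elements themselves, the best-known targets of Trim28, were not analysed here, since the table counts genes.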

How the data were processed

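Illumina TruSeq libraries were made from total RNA, per the labels' protocols. The authors deposited 1 table of whole-number read counts per gene, not normalized. The submitters' processing notes name TopHat2 2.0.12, Bowtie 1.1 and HTSeq. The genome build, annotation and strand setting are not given in the sources used here. Of 24207 identifiers 23882 are in GENCODE M21 (GRCm38), 23873 at overlapping coordinates.

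Columns were assigned to samples by their names. The counts were fitted with edgeR 4.0.16 (R 4.3.3), with TMM factors, the package's filter at a minimum count of 10 in a group and a total of 15, and 1 term for each of the 4 groups over 12 libraries. A change is called at an adjusted p under 0.05 (quasi-likelihood test, Benjamini-Hochberg over the tested genes), and errors of log2 changes are SE from the model. CPM use TMM-scaled library sizes. Totals in the 6 compared libraries ran from 11906701 to 19191649 counts, so 3 counts equal 0.15 to 0.243 CPM. Groups with 1 to 3 reads are given as ratios with 95% exact binomial intervals, which cover counting error only. The script was tested on simulated counts. Alternatives were DESeq2 1.42.0 (factors, Wald test), limma 3.58.1 (voom), other factors and filters, a fit of the 6 libraries only, a replicate block, and leaving out each library.

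Genes were named by rule: the targets and factors; the 12 largest rises and falls from 1 CPM and the 8 largest from 50 CPM, without overlap and without predicted genes, clones and pseudogenes; up to 3 called members of a list in its main direction, by p, and 1 in the other; and members of neighbour runs. The comparison, the members and the lists were chosen with earlier results of these data known. Upstream windows are RefSeq's (GRCm38.p6), matched by Ensembl identifier or, where that gave none, by symbol. They cover 10590 of the 14520 tested genes (72.9%), under 80%. Only the 12 largest rises, with 11 windows, are set against all windows, as a description. No set test was run. Some genes that the rule names are not reported here.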

Additional observations from a re-analysis of the deposited data

How the results depend on the processing

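The number of genes called, 3620 as reported, was 3602 with DESeq2 size factors, 3641 with upper-quartile factors, 3469 with the DESeq2 test, 3608 with limma-voom, 3989 without the filter on low counts, 3356 with a minimum count of 30 and 3161 with only the 6 libraries. Left-out libraries gave 2502 (without Trim28 replicate 2) to 3741 (without control replicate 1). Rises of at least 2-fold, 430 as reported, numbered 286 with a minimum count of 30, where thinly read genes are not tested. Of the 3620 genes, 1975 were called in all 14 alternatives, among them 274 risen and 246 fallen at least 2-fold. No named gene that was called changed direction, and of the others Klf4, not called in any alternative, at 0.08 as reported, was -0.013 without control replicate 2 and between that and 0.142 without each library. With a replicate block 3864 genes were called, 2012 risen and 1852 fallen. Deviations of same-numbered libraries correlated at 0.158, 0.061 and 0.0955, and Trim28 replicate 2 correlated better with control 3 (0.0861), so the numbers were not taken as pairs. Depth limits the largest changes, since most rest on genes under 1 CPM in 1 group.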
